A study of Homo sapiens with 6 samples.

Results

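The red cell membrane is held in shape by a meshwork of spectrin on its inner face, and 8 genes for proteins of this membrane and its skeleton were followed in the polysomal RNA of K562 cells with and without RNH1. They are SPTB, ANK1, EPB41, EPB42, GYPB, GYPC, RHAG and TMOD1, chosen by name from the 60664 genes of the table, and all 8 had enough reads to be tested. K562 is a human erythroleukemia line that expresses many red cell genes, and RNH1 encodes the ribonuclease inhibitor, a cytosolic protein that binds and blocks ribonucleases of the RNase A family. RNH1 KO cells (3 samples), in which RNH1 had been disrupted with CRISPR/Cas9, were set against RNH1 WT cells (3 samples). Both were the same line, with no other agent named in the labels, and were lysed in the presence of cycloheximide, which holds ribosomes on their mRNAs, and the RNA was taken from the polysome fractions of a sucrose gradient. The samples of a genotype are described as independent replicates, without a statement on whether they were separate cultures or clones, so a p-value speaks only for the scatter among these samples, and that scatter may be technical.

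In the red cell, spectrin forms long rods of paired chains, and the rods are tied to the membrane at a pair of sites. At the first, ankyrin joins beta-spectrin to band 3, the anion exchanger, with protein 4.2 as a stabilizer and the glycophorins and the Rh proteins nearby. At the second, the junctional complex, protein 4.1 joins the ends of the spectrin rods to short actin filaments and to glycophorin C, while tropomodulin caps the filaments. Inherited defects of spectrin, ankyrin, band 3, protein 4.2 and protein 4.1 cause spherocytosis or elliptocytosis.

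Polysomal RNA sediments with several ribosomes on it. Its level therefore reflects both the abundance of a transcript and its translation, and these cannot be told apart here. As the samples are bulk cultures, fewer cells of a kind and less RNA per cell cannot be told apart either. The values are the deposited normalized counts, that is, reads per gene divided by 1 size factor per sample. They give the level of a gene relative to the other polysomal RNA of its sample, not an amount per cell. The paper reports reduced polysome levels in RNH1 KO K562 cells, so higher or lower is meant here in this relative sense only. Each sample had 34908202 to 46256928 reads in genes (median 42326205), and 3 reads, taken as the detection floor, equaled between 2.58 and 3.40 normalized counts in the different samples, which covers counting error only. RNH1 itself was at 1058, 1144 and 997 normalized counts in RNH1 KO and at 4566, 2857 and 1865 in RNH1 WT, and was lower in RNH1 KO (log2 fold change -1.44, adjusted p = 0.000338 from limma). The cells carry the label lymphoblast and bone marrow. Of 16 erythroid markers 15 were tested (HBE1 was at 0) and their summed level was 108732 to 120150 normalized counts in RNH1 KO and 147314 to 157359 in RNH1 WT, whereas 11 lymphoid markers summed to 925 to 1101 in RNH1 KO and 571 to 714 in RNH1 WT, with MS4A1 and IL7R at 0 in all 6 samples. The summed level of 10 myeloid markers was 5128 to 5851 in RNH1 KO and 5023 to 6205 in RNH1 WT (ELANE, S100A8 and S100A9 at 0), and that of 9 megakaryocyte markers 406 to 433 in RNH1 KO and 194 to 377 in RNH1 WT (GP1BB, GP9, PF4 and THBS1 at 0). Of the erythroid markers tested, 1 was higher, 5 were lower and 9 did not pass, while of all genes tested 24.1% were higher and 24.1% lower. Much of the erythroid sum was TFRC, at 41045 to 54753 in RNH1 KO and 45667 to 60451 in RNH1 WT. Some markers of other lineages were present, such as CD3D (means of 565 in RNH1 KO and 308 in RNH1 WT) and LYZ (2270 and 3090). By summed level the markers are therefore mostly those of erythroid cells rather than of lymphoblasts. The part of the lower erythroid and higher lymphoid sums in the results was not tested.

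Of the 8 genes, SPTB and ANK1 were higher and GYPB was lower in RNH1 KO polysomes, and the other 5 did not pass the test. SPTB changed 3.33-fold upward in the ratio of the means and GYPB fell to 30.0% of its RNH1 WT level, while ANK1 was 1.43-fold higher and close to the threshold. Limma was run on log2(normalized count + 1) of the 16652 genes whose mean reached 10 normalized counts, and a gene was called when its p, adjusted over all of them by Benjamini-Hochberg, was under 0.1. By this rule 48.2% of all genes tested were called, 24.1% as higher and 24.1% as lower, so 3 of 8 is no larger a share than that of all genes. The samples of the genotypes did not overlap for 3 of the 8 genes, against 51.1% of all genes tested. The median log2 fold change of the 8 genes was 0.28, against 0.03 for all genes tested. The plot of normalized counts by sample shows each of the 8 genes.

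**Figure D1:**
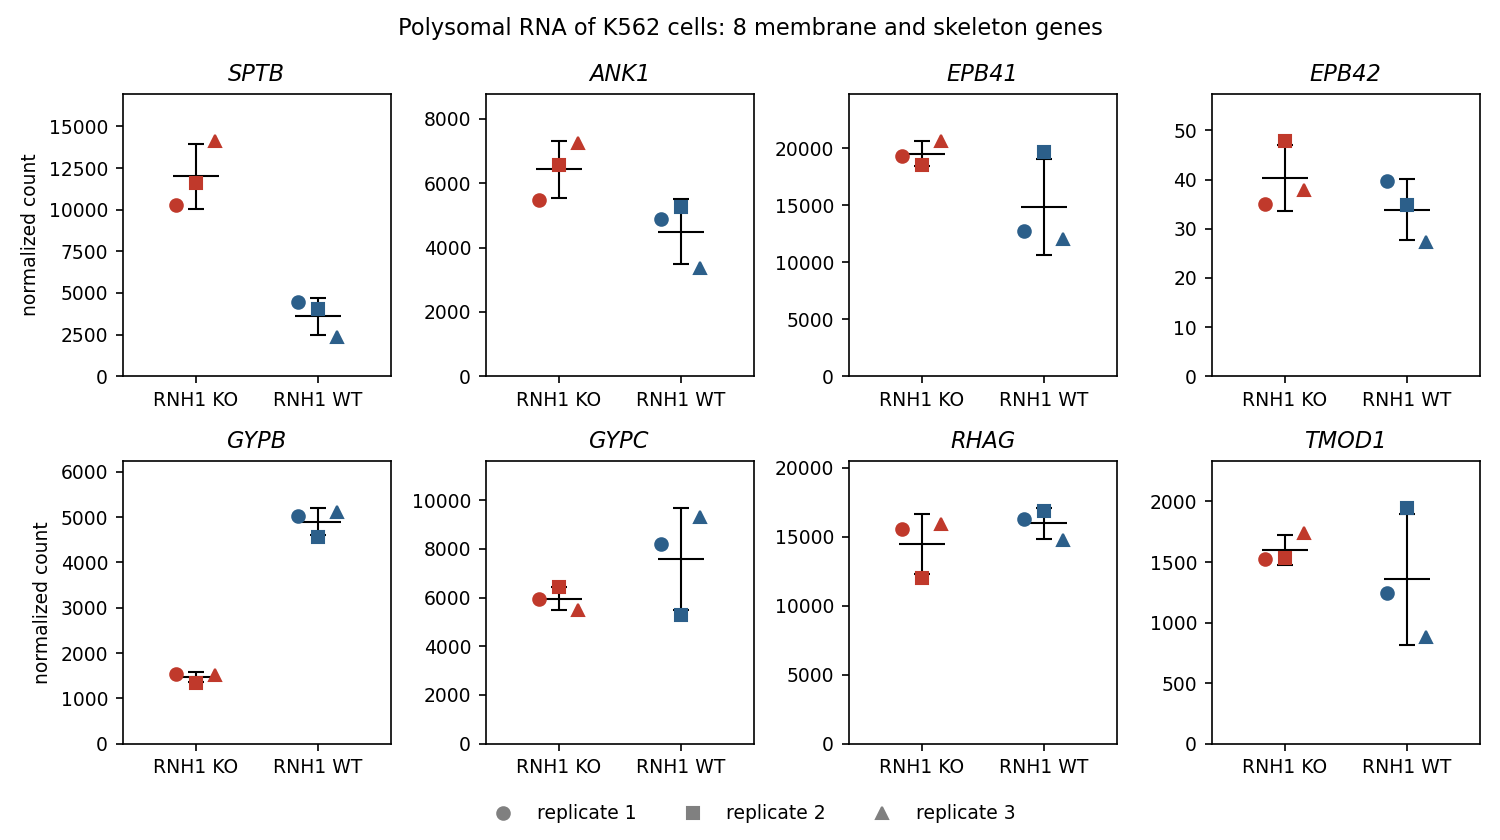
Normalized counts of the 8 genes in each RNH1 KO sample (left, red) and RNH1 WT sample (right, blue), with the mean and the SD as black lines and 1 marker shape per replicate number. The groups do not overlap for SPTB, ANK1 and GYPB, and RNH1 WT replicate 2 lies away from the other RNH1 WT samples for EPB41, GYPC and TMOD1.

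SPTB encodes the beta chain of erythroid spectrin, which carries the binding sites for ankyrin and for protein 4.1. Its normalized count was 10282, 11584 and 14147 in RNH1 KO samples and 4444, 4034 and 2331 in RNH1 WT samples. Every RNH1 KO sample was above every RNH1 WT sample, and the lowest RNH1 KO value was more than double the highest RNH1 WT value. The log2 fold change was 1.78 (standard error 0.24, 95% interval 1.26 to 2.29, adjusted p = 3.02e-05 from limma). SPTB was called as higher under each of the 20 other settings tried, with log2 fold changes of 1.39 to 2.10. It stood at the 95.7th percentile of the log2 fold changes of all genes tested.

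On GRCh38, SPTB occupies positions 64746283 to 64879907 of chromosome 14 (minus strand). Its canonical transcript in GENCODE 44 has 36 exons and 10177 bases. The only protein-coding gene that overlaps it, PLEKHG3 on the opposite strand, averaged 1.87 normalized counts. None of the 50-base windows of the SPTB transcript occurs in a transcript of another gene.

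GYPB encodes glycophorin B, a short sialoglycoprotein that carries the S and s blood group antigens. Its normalized count was 1542, 1343 and 1520 in RNH1 KO samples and 5016, 4560.0 and 5125 in RNH1 WT samples. The groups were far apart and both were tight, with means of 1468 ± 109 in RNH1 KO and 4900.1 ± 299.6 in RNH1 WT (SD, n = 3 each). The log2 fold change was -1.74 (standard error 0.19, 95% interval -2.13 to -1.35, adjusted p = 2.40e-06 from limma). GYPB was called as lower with each replicate left out in turn and with each other scaling of the samples, but not after a correction of each sample for transcript length within protein-coding genes, which was chosen after seeing the data (log2 fold change -0.34, adjusted p = 0.141 from limma).

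GYPB occupies positions 143996104 to 144019380 of chromosome 4 (minus strand), and its canonical transcript has 5 exons and only 564 bases. It belongs to a family of near-identical neighbors that includes GYPE, and the sources used here do not state how reads that fit several of them were counted. Of the 50-base windows of the GYPB transcript 26.8% also occur in transcripts of other genes, but of the 150-base windows, the length of 1 read, 3.86% do. An overlapping antisense gene, ENSG00000251600, averaged 87.4 normalized counts. GYPE had 3062, 2437 and 3193 normalized counts in RNH1 KO and 5348, 5944 and 6194 in RNH1 WT. It was lower in RNH1 KO too, by a log2 fold change of -1.02, with no overlap of the groups.

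The stretches of 110 bases just upstream of the transcription start are shown for SPTB, which rose, for GYPB, which fell, and for RHAG and EPB42, which did not pass the test. They are from RefSeq on GRCh38.p14, written 5′ to 3′ on the strand of the gene, with the letters of a GATA motif in capitals (AGATAA as the first form, with AGATAG as a variant of its end, TGATAA as a variant of its start and TGATAG as the last, searched on both strands). GATA1 is the factor known to bind such letters in red cell genes. The stretches are chr14:64879908-64880017, chr4:144019381-144019490, chr6:49636840-49636949 and chr15:43221019-43221128, all on the minus strand.
SPTB: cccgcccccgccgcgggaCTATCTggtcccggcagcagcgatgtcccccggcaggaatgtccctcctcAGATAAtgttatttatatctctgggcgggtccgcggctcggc
GYPB: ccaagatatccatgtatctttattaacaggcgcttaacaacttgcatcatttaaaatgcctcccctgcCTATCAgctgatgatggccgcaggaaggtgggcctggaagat
RHAG: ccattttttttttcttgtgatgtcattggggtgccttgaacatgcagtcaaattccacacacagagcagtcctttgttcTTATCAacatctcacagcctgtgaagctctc
EPB42: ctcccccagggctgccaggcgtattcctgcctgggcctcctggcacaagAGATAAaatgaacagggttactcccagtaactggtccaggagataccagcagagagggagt

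Of the 8 genes 7 were found in the RefSeq table of promoters, with 11 starts among them. The 300 bases from 250 before to 50 after a start held at least 1 GATA motif for 7 of these 11 starts (63.6%), which belong to 6 of the 7 genes, and for 25.0% of all 35116 promoters of the table. SPTB has such letters at -92 and -42, counted from the start, GYPB at -42 and across the start from -4, RHAG at -31, EPB42 at -208 and -61, GYPC at -64 and EPB41 at -189. The window of a second GYPB start, at 144019345, overlaps the first and holds the same letters at -77 and -39. These letters of GYPB are thus counted for both of its starts. TMOD1 has none in the windows of either of its starts, and neither do the windows of the second starts of SPTB and EPB41. The letters were present in genes that rose, fell or did not pass, and a match of letters is a description only, not a measured site. The letters CACCC, searched on both strands because factors of the KLF family bind such boxes, were in the windows of 7 of the 11 starts (63.6%) and in 59.9% of all promoters of the table. The window of GYPB matches that of GYPE at 254 of 259 bases when both are laid over each other without gaps.

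ANK1 encodes ankyrin-1, the link between beta-spectrin and band 3. It had 5482, 6573 and 7251 normalized counts in RNH1 KO and 4878, 5248 and 3358 in RNH1 WT. All RNH1 KO samples were above all RNH1 WT samples, but the highest RNH1 WT value lay close under the lowest RNH1 KO value. The log2 fold change was 0.53 (standard error 0.22, 95% interval 0.08 to 0.99, adjusted p = 0.0601 from limma), and the call did not hold in all settings. The adjusted p from limma was 0.171 without RNH1 KO replicate 2, 0.240 without RNH1 KO replicate 3 and 0.202 without RNH1 WT replicate 3, and with the correction for transcript length the log2 fold change was 0.23 (adjusted p = 0.359). ANK1 spans 41653220 to 41896741 on the minus strand of chromosome 8, with 43 exons and 8292 bases in the canonical transcript.

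EPB42, the gene of protein 4.2, which stabilizes the link of ankyrin to band 3, was the lowest of the 8. Its normalized count was 35.1, 47.9 and 37.9 in RNH1 KO and 39.6, 34.8 and 27.2 in RNH1 WT. The groups overlapped, and the 95% interval of the log2 fold change ran from -0.49 to 0.98 (adjusted p = 0.600 from limma), so neither a moderate fall nor a near doubling could be told from no change. All values were above the level of 3 reads. EPB42 lies on chromosome 15 from 43197227 to 43221018 (minus strand), with 13 exons and 2344 bases in its canonical transcript. A noncoding gene, ENSG00000285117, overlaps EPB42 on the same strand and averaged 0.32 normalized counts. Of the 150-base windows of the EPB42 transcript 13.6% also occur in its transcripts. How reads that fit both were counted is not stated, so the EPB42 counts may be too low.

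RHAG encodes the Rh-associated glycoprotein, without which the Rh blood group proteins do not reach the surface. It had 15558, 11976 and 15944 normalized counts in RNH1 KO and 16257, 16897 and 14729 in RNH1 WT. RNH1 KO replicate 2 was the lowest sample and the remaining 5 samples were interleaved. RHAG did not pass (log2 fold change -0.15, 95% interval -0.59 to 0.29, adjusted p = 0.598 from limma), and the interval still holds changes in both directions. No other annotated gene overlaps RHAG (chromosome 6, 49605175 to 49636839, minus strand, 10 exons and 1895 bases in the canonical transcript).

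At the junctional complex, EPB41, which encodes protein 4.1, had 19320.3, 18505 and 20651 normalized counts in RNH1 KO and 12754, 19626 and 12030.2 in RNH1 WT. RNH1 WT replicate 2 was as high as the RNH1 KO samples and the other RNH1 WT samples were lower than all of them. For EPB41 the log2 fold change was 0.43 (standard error 0.23, 95% interval -0.04 to 0.91, adjusted p = 0.138 from limma). EPB41 lies on the plus strand of chromosome 1 from 28887091 to 29120046, with 21 exons and 6031 bases in the canonical transcript.

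TMOD1 encodes tropomodulin-1, which caps the slow-growing ends of the actin filaments. It had 1524, 1535 and 1739 normalized counts in RNH1 KO and 1241, 1945 and 883 in RNH1 WT. RNH1 WT replicate 2 was the highest and replicate 3 the lowest of all 6 samples, and the RNH1 KO samples lay between them. For TMOD1 the log2 fold change was 0.31 (standard error 0.24, 95% interval -0.20 to 0.82, adjusted p = 0.325 from limma). TMOD1 (chromosome 9, 97501180 to 97601743, plus strand, 10 exons and 3311 bases) overlaps TSTD2 on the opposite strand, which averaged 1809.8 normalized counts. Whether reads were counted by strand is not stated in the sources used here, so reads of the pair may not be cleanly divided.

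GYPC encodes glycophorin C, the membrane anchor of protein 4.1 and the carrier of the Gerbich antigens. It had 5931, 6426 and 5490 normalized counts in RNH1 KO and 8208, 5272 and 9298 in RNH1 WT. RNH1 WT replicate 2 was below all RNH1 KO samples, and the other RNH1 WT samples were above all of them. For GYPC the log2 fold change was -0.31 (standard error 0.23, 95% interval -0.79 to 0.16, adjusted p = 0.282 from limma). GYPC (chromosome 2, 126656133 to 126696667, plus strand, 4 exons and 1018 bases) shares no window of 50 bases with the transcripts of another gene. A processed pseudogene inside it on the same strand, ENSG00000235128, had 189, 158 and 166 normalized counts in RNH1 KO and 23.0, 29.8 and 18.1 in RNH1 WT.

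The 3 junctional genes thus had 1 RNH1 WT sample in common, replicate 2, that stood on the far side of the other RNH1 WT samples. The SD of log2(normalized count + 1) was larger in RNH1 WT than in RNH1 KO for 6 of the 8 genes. Without RNH1 WT replicate 2, 6 of the 8 genes were called, against 53.2% of all genes tested then. The log2 fold changes were 0.65 for EPB41 (adjusted p = 0.00774 from limma), 0.61 for TMOD1 (adjusted p = 0.0245 from limma) and -0.56 for GYPC (adjusted p = 0.0191 from limma). These larger differences follow from leaving out the RNH1 WT sample that lay nearest to the RNH1 KO mean for 5 of the 8 genes. Without RNH1 WT replicate 1, 3 of the 8 genes were called (52.8% of all genes) and none of these junctional genes was among them. Without RNH1 WT replicate 3, 2 of the 8 genes were called (43.8% of all genes), and the log2 fold changes were 0.30 for EPB41, 0.04 for TMOD1 (adjusted p = 0.908 from limma) and -0.15 for GYPC. RHAG and EPB42 were not called under any of the settings tried.

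Levels of different genes can be compared per length, here as normalized counts per kilobase of merged exons. In RNH1 KO the order was RHAG (5513 ± 832), GYPC (1648 ± 129.8), EPB41 (975 ± 54.2), SPTB (811 ± 133), GYPB (769.9 ± 57.2), ANK1 (585 ± 81.2), TMOD1 (435 ± 33.0) and EPB42 (13.7 ± 2.30), as mean ± SD of n = 3. In RNH1 WT it was RHAG (6071 ± 424), GYPB (2569.6 ± 157), GYPC (2104 ± 577), EPB41 (740.4 ± 209.7), ANK1 (409 ± 91.1), TMOD1 (369 ± 147), SPTB (244 ± 75.7) and EPB42 (11.6 ± 2.14). SPTB stood at place 4 in RNH1 KO and at place 7 in RNH1 WT, while GYPB stood at place 5 in RNH1 KO and at place 2 in RNH1 WT. On this scale RHAG was the highest and EPB42 the lowest in both. Neighbors whose samples overlapped were EPB41 with SPTB and SPTB with GYPB in RNH1 KO, and GYPB with GYPC, ANK1 with TMOD1 and TMOD1 with SPTB in RNH1 WT. With the length of the canonical transcript instead, 26 of the 28 pairs of genes kept their order in both genotypes. The pairs that did not were RHAG with GYPB, as GYPB was then the highest in RNH1 WT (8688 against 8423 for RHAG), and SPTB with GYPB, as GYPB was then above SPTB in RNH1 KO too (2603 against 1179.6 for SPTB).

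**Figure D2:**
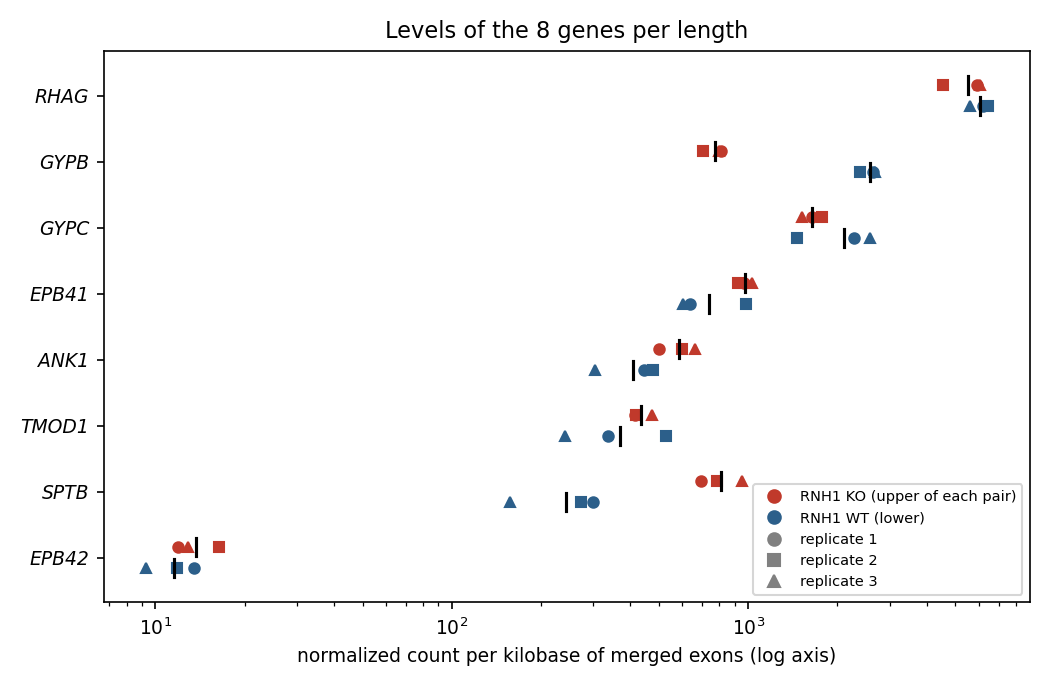
Normalized count per kilobase of merged exons (log axis) of the 8 genes in each sample, with RNH1 KO (red) above RNH1 WT (blue) for each gene and a black line at the mean of n = 3. RHAG is at the top and EPB42 at the bottom in both genotypes, while SPTB moves right and GYPB moves left in RNH1 KO.

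The 8 genes together made up 1665, 1629 and 1728 of every 1000000 normalized counts in RNH1 KO and 1095, 1291 and 1060 in RNH1 WT. The means differed by 525, with no overlap of the groups (p = 0.1 by an exact two-sided permutation test, which with 3 samples a side cannot give less). Without EPB41, the gene with the highest count over all 6 samples, the difference was 318, and without SPTB it was 277. Taking a share amounts to scaling each sample by its total instead of by its size factor. On that scale genes at large shifted upward in RNH1 KO, with a median of 0.36 in log2 units, against 0.03 with the size factors. A higher share is thus not particular to these 8 genes, and the 525 was not tested against that shift. The summed normalized counts of the 8 genes were 57989 to 66779.6 in RNH1 KO and 47781 to 57618 in RNH1 WT, so these did not overlap either, but without SPTB the sums were 46404 to 52632 in RNH1 KO and 45449 to 53584 in RNH1 WT and did overlap. Within the sum, SPTB took 17.2%, 20.0% and 21.2% in RNH1 KO and between 4.88% and 8.41% in RNH1 WT. GYPB took 2.58%, 2.32% and 2.28% in RNH1 KO and 9.49%, 7.91% and 10.7% in RNH1 WT.

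Ratios of genes within a sample do not depend on its size factor. The ratio of SPTB to ANK1 was 1.88, 1.76 and 1.95 in RNH1 KO and 0.911, 0.769 and 0.694 in RNH1 WT, and that of SPTB to RHAG 0.661, 0.967 and 0.887 in RNH1 KO and 0.273, 0.239 and 0.158 in RNH1 WT. The ratio of GYPB to GYPC was 0.260, 0.209 and 0.277 in RNH1 KO and 0.611, 0.865 and 0.551 in RNH1 WT. The ratio of GYPB to RHAG was 0.0991, 0.112 and 0.0953 in RNH1 KO and 0.309, 0.270 and 0.348 in RNH1 WT. These 4 ratios were chosen after the values had been seen and set SPTB or GYPB, which had been called, over genes that changed less or the other way. They are given as a description with no test, in which the samples of the genotypes do not overlap.

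**Figure D3:**
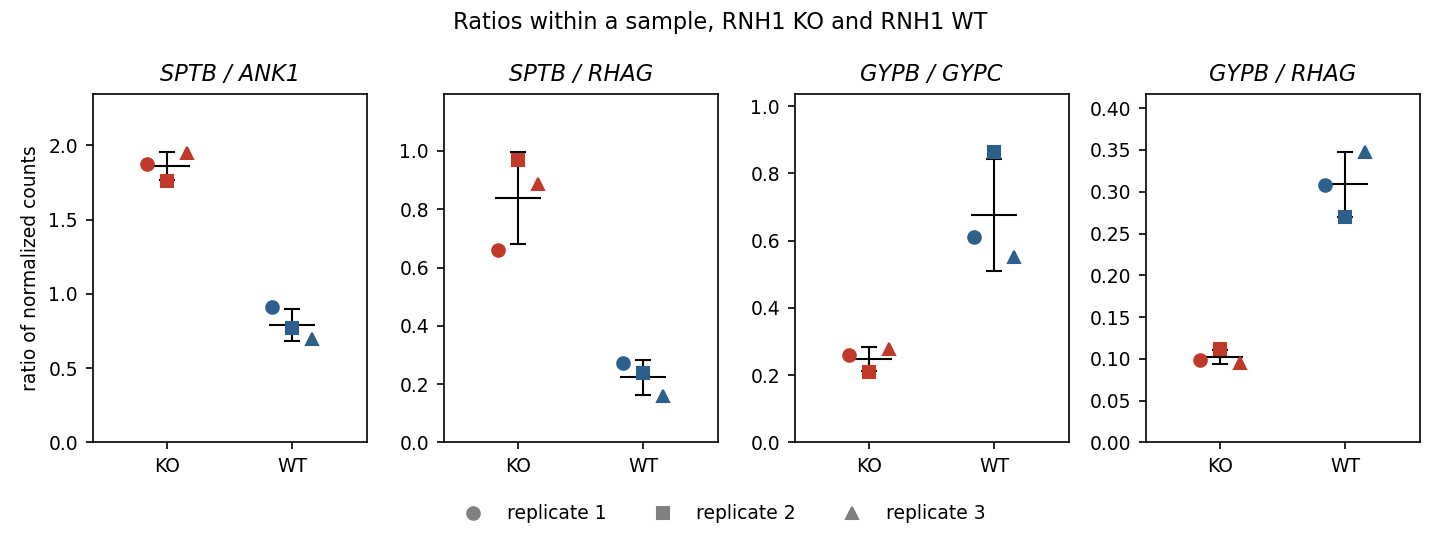
Ratios of the normalized counts of pairs of genes within each RNH1 KO sample (left, red) and RNH1 WT sample (right, blue), with the mean and the SD as black lines. The RNH1 KO samples lie above the RNH1 WT samples for the 2 ratios with SPTB on top and below them for the 2 with GYPB on top.

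Transcript length moved with these results. Among the protein-coding genes tested, split into 5 classes of like size by the length of the canonical transcript, the median log2 fold change was -0.48 in the shortest class (up to 1761 bases) and 0.31 in the longest (5648 bases or more). SPTB, ANK1 and EPB41 were in the longest class, where 39.6% of genes were called as higher, and GYPB and GYPC were in the shortest, where 48.2% were called as lower. The 677 genes within 20% of the length of SPTB had a median of 0.39 with quartiles of -0.09 and 0.80, all below the 1.78 of SPTB. The 252 genes within 20% of the length of GYPB had a median of -1.37 with quartiles of -1.96 and -0.46, a range that holds the -1.74 of GYPB. The 1154 genes within 20% of the length of ANK1 had a median of 0.33, near its 0.53.

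**Figure D4:**
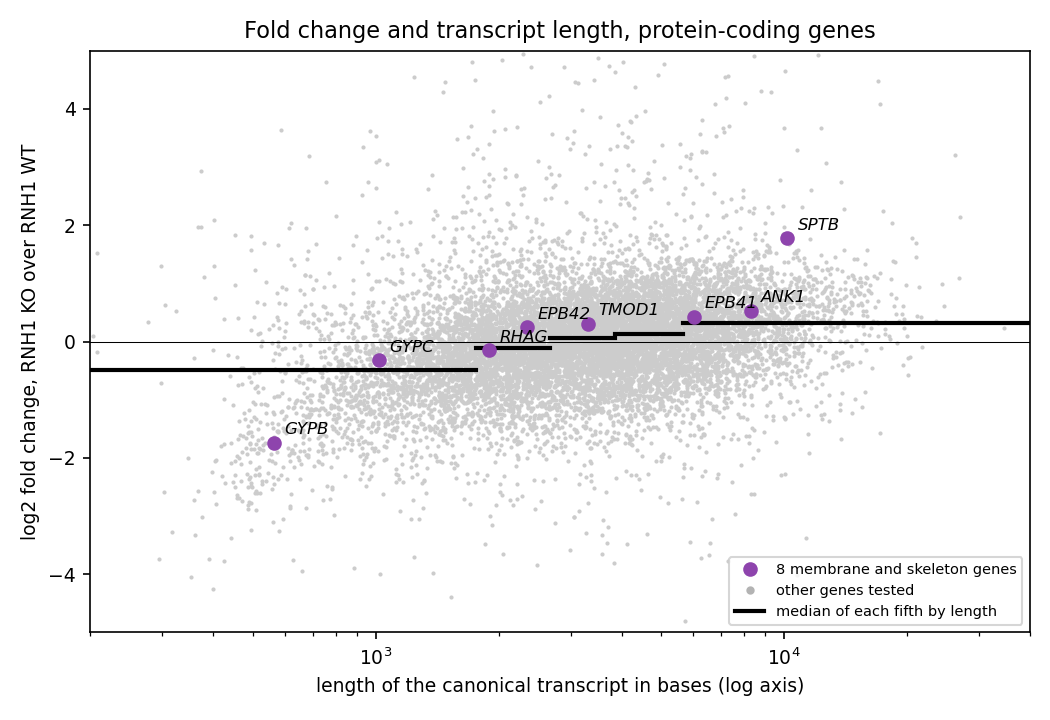
Log2 fold change of RNH1 KO over RNH1 WT against the length of the canonical transcript (log axis) for protein-coding genes (gray, 12041 drawn and 42 outside the axes), with the 8 genes in purple and the median of each of the 5 length classes as a black line. GYPB sits among other short transcripts that were lower, while SPTB lies above most transcripts of its length.

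With the correction within protein-coding genes, 1 of the 8 genes was called, against 48.9% of the 12083 genes tested, and it was SPTB (1.39 on the log2 scale, limma adjusted p = 0.000914). The log2 fold changes of the others were then 0.20 for ANK1, 0.28 for EPB41, 0.28 for TMOD1, 0.34 for EPB42, 0.05 for RHAG, 0.33 for GYPC and -0.34 for GYPB. A milder correction, fitted over genes of every type, left GYPB called at -1.57 (adjusted p = 3.10e-05 from limma). Of the settings tried, the correction within protein-coding genes moved GYPB the most.

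The proteins that bind the 8 gene products were taken from a list of 17 partners in the ankyrin and junctional complexes. Of these, 5 were higher, 3 were lower and 9 did not pass, and the median log2 fold change was 0.25, against 0.03 for all genes tested. Of all genes tested 48.2% were called, so the partners called were no larger a share. SLC4A1, the gene of band 3 itself, had 164, 176 and 183 normalized counts in RNH1 KO and 61.6, 73.6 and 28.3 in RNH1 WT (log2 fold change 1.77, standard error 0.33, adjusted p = 0.000524 from limma). All RNH1 KO samples were more than double every RNH1 WT sample. DMTN, the gene of the actin-bundling protein dematin, had 349.8, 427 and 426 normalized counts in RNH1 KO and 147, 144 and 82.7 in RNH1 WT (log2 fold change 1.72, adjusted p = 8.17e-05 from limma). ADD1, the gene of alpha-adducin, which caps actin and recruits spectrin, had 6324, 6713 and 7418 normalized counts in RNH1 KO and 3064, 3954 and 2391 in RNH1 WT (log2 fold change 1.15, adjusted p = 0.000509 from limma).

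ADD2, the gene of beta-adducin, had 1358, 1559 and 1737 normalized counts in RNH1 KO and 883, 721 and 577 in RNH1 WT (log2 fold change 1.11, adjusted p = 0.000554 from limma). The remaining partner that was higher was KEL (the Kell antigen) at 0.87. The partners that were lower were STOM (stomatin) at -0.91, RHD (the RhD antigen) at -0.52 and CD47 at -0.50. RHD (adjusted p = 0.0597 from limma) and CD47 (adjusted p = 0.0591 from limma) were near the threshold, and for CD47 the groups overlapped. RHD is nearly identical to RHCE, at -0.43 (adjusted p = 0.111 from limma), so the division of their reads is uncertain. Membrane proteins were found in both directions, with SLC4A1 and KEL higher and STOM, RHD and CD47 lower. RHCE, ICAM4, SLC2A1, XK and MPP1 did not pass. Of the skeleton, DMTN, ADD1 and ADD2 were higher, while ADD3, TPM1, TPM3 and ACTB did not pass. With the correction within protein-coding genes, SLC4A1 was at 1.62 and DMTN at 1.72.

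**Figure D5:**
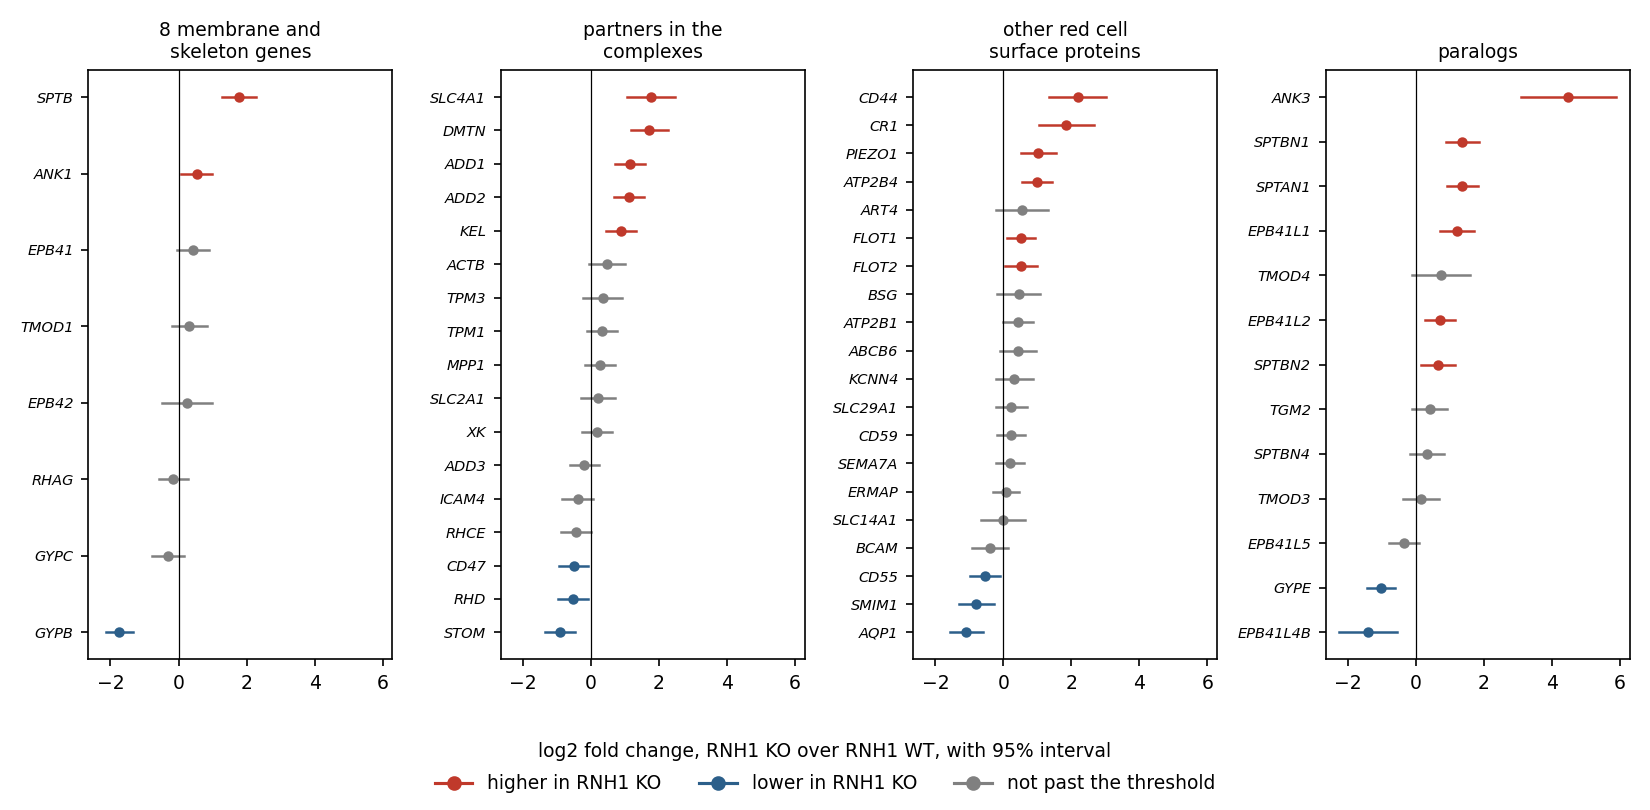
Log2 fold change of RNH1 KO over RNH1 WT with its 95% interval from limma, for the 8 genes, the partners in the complexes, the other red cell surface proteins and the paralogs that were tested. Red genes were higher, blue genes lower and gray genes did not pass an adjusted p of 0.1, and each panel holds genes of all 3 colors.

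Of 22 other proteins of the red cell surface, 6 were higher, 3 were lower, 11 did not pass and 2 (ACKR1 and ABCG2) had too few reads to be tested, with a median log2 fold change of 0.37. The share called among those tested was no larger than the 48.2% of all genes tested, whose median was 0.03. PIEZO1, a mechanically gated ion channel, had 26276, 34244 and 34908 normalized counts in RNH1 KO and 21391, 13821 and 12454 in RNH1 WT (log2 fold change 1.03, adjusted p = 0.00271 from limma). ATP2B4, a calcium pump, was 0.99 higher on the log2 scale (adjusted p = 0.00132 from limma). AQP1, the water channel with the Colton antigen, had 318, 342 and 334 normalized counts in RNH1 KO and 764, 886 and 517 in RNH1 WT (log2 fold change -1.09, adjusted p = 0.00124 from limma). SMIM1, the carrier of the Vel antigen, was lower at -0.80 (adjusted p = 0.0163 from limma), but at 506 bases its transcript is shorter than that of GYPB, and with the correction within protein-coding genes the sign turned to 0.76. Lower too was CD55, a complement regulator, at -0.55 (adjusted p = 0.0481 from limma).

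Several of the 8 genes have paralogs that serve other tissues, and of 20 such genes 13 were tested, with 6 higher, 2 lower and 5 not passing, at a median of 0.64. Of all genes tested 24.1% were higher and 24.1% lower, at a median of 0.03. The spectrins of other tissues were higher along with SPTB. SPTBN1, a beta-spectrin of most cells, had 20484, 21913 and 27588 normalized counts in RNH1 KO and 10096, 10878 and 6624 in RNH1 WT (log2 fold change 1.36, adjusted p = 0.000233 from limma). SPTAN1, the chain it pairs with, had 3757, 4314 and 5164 normalized counts in RNH1 KO and 1852, 2087 and 1276 in RNH1 WT (log2 fold change 1.36, adjusted p = 0.000138 from limma). EPB41L1, a relative of protein 4.1, was at 1.21 (adjusted p = 0.000819 from limma).

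GYPE at -1.02 (adjusted p = 0.000676 from limma) and EPB41L4B at -1.41 (adjusted p = 0.00986 from limma) were the paralogs that were lower. ANK3, a relative of ANK1 named after its values were seen, had 24.0, 30.6 and 43.1 normalized counts in RNH1 KO and 2.09, 0 and 0 in RNH1 WT. Over all samples that was 106 reads in RNH1 KO and 2 in RNH1 WT. With means of 32.5 in RNH1 KO and 0.70 in RNH1 WT, ANK3 reached the mean of 10 only through RNH1 KO. It is among the 6 paralogs counted as higher, where it is a description only. The paralogs with too few reads to be tested were SPTBN5, ANK2, EPB41L3, EPB41L4A, RHBG, RHCG and TMOD2.

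Of 65 tested genes of these lists and of the erythroid markers, DMTN had the pattern over the 6 samples most like that of SPTB, with a root mean square difference of 0.10 in centered log2(normalized count + 1). For ANK1 it was ACTB, an actin gene, at 0.07, with FLOT2 nearly as close at 0.08. For GYPB it was HBZ, an embryonic globin gene, at 0.31. The difference is not scaled to the size of a gene's change, so it does not rank likeness between SPTB, ANK1 and GYPB. It includes the difference between the genotypes.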

How the data were processed

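Polysomal RNA of 3 RNH1 KO and 3 RNH1 WT samples of K562 cells was analyzed. The authors made stranded total RNA libraries and sequenced them as paired reads of 150 bases. The submitters' processing notes name HISAT2 2.2.1, featureCounts 2.0.1, DESeq2 1.36.0, FastQC 0.11.9 and GRCh38, while other versions stand in the paper's methods. The values used are a deposited signal: the authors counted reads per gene and scaled each sample by its DESeq2 size factor. In each sample 100% of nonzero values were whole multiples of the smallest step (tolerance 1e-06), so reads could be recovered. The deposited means per genotype, log2 fold changes, standard errors, test statistics and p-values of the authors were not used. All sample columns were mapped, leaving 0 unmapped.

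The 16652 genes with a mean of at least 10 were compared on log2(value + 1) with limma 3.58.1 in R 4.3.3, using trend and robust options, genotype alone in the model, and p-values adjusted over all genes tested. The fold change of low genes is understated on this scale. Scaling, filter, pseudocount, replicates, a replicate block and transcript length were varied, and the recovered reads were tested with edgeR 4.0.16 (quasi-likelihood, 8023 genes called) and DESeq2 1.42.0. The code was tested on simulated data first. Coordinates, exons and lengths are those of GENCODE 44, the length correction was a lowess of each sample's log2 values on log2 length, and Python 3.11.15 with scipy 1.17.1 was used for the rest. The genes and lists were chosen with earlier results of these data known. Named are all 8 genes, the called genes of each list that changed most (at most 4, mean of at least 100), and the nearest patterns. Other genes of the lists are named after their values were seen. Some genes of the lists and markers are not reported here, and the counts leave them out.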

Additional observations from a re-analysis of the deposited data

How the results depend on the processing

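SPTB was called as higher under all 20 other settings. GYPB was called as lower under 18 of 20, the exceptions being the correction for transcript length within protein-coding genes, which was added after seeing the data, without and with a replicate block (-0.34 in both). With library total scaling, under which the median over all genes was 0.36 on the log2 scale against 0.03 before, 6697 genes were higher and 2404 lower, 5 of the 8 genes were called (4 higher, with EPB41 and TMOD1 added), 11 partners were higher and 1 lower, and 15 surface genes were called (14 higher, 1 lower). Upper-quartile scaling put that median at 0.17, gave 5095 genes higher and 3228 lower, and left 1 partner lower. The milder length correction called 1 of the 8 genes as higher without and with the block, and 4055 and 3452 of all genes. The correction within protein-coding genes called 1 of the 8 genes as higher, 0 as lower (0 also at an unadjusted limma p under 0.05, with GYPB at 0.0760; edgeR and DESeq2, run without the correction, each called 1) and 8 partners and 10 surface genes as higher, and with the block 4897 genes in all, 2499 higher and 2398 lower. With a mean of at least 50, 1 paralog was lower, as were 3506 of all genes. GYPC turned to 0.0114 with library totals, 0.00067 with the milder length correction and 0.33 with the other, RHAG to 0.18, 0.0121 and 0.0479, with or without the block, and SMIM1 to 0.76 with the second correction. The difference in the summed share was 318 in 1000000 without EPB41 and 277 without SPTB, the second added after seeing the data. With 1 replicate left out at a time, calls ran from 5835 to 8936 over all genes (2778 to 4575 higher, 3057 to 4361 lower), from 2 to 6 of the 8 genes (1 to 4 higher, 1 to 2 lower), from 6 to 11 partners (5 to 8 higher, 1 to 4 lower), from 6 to 12 surface genes (4 to 9 higher, 2 to 4 lower) and from 7 to 11 paralogs (5 to 8 higher, 2 to 3 lower), and the share from 481 to 597 in 1000000. The causes were not tested beyond what each setting changes.

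Replicate numbers gave no sign of pairing: deviations from the genotype mean, in samples with the same number, correlated at -0.16, -0.19 and -0.27 over 16652 genes. Under another order they correlated at 0.28 (RNH1 KO 1 with RNH1 WT 3), 0.24 (2 with 1) and 0.27 (3 with 2). The remaining pairs were at -0.10, -0.02 and -0.05. The second order was picked after the values were seen. Deviations from a genotype mean cancel out within the genotype, so these correlations depend on each other. Whether samples of unlike number share a batch was not tested. With a replicate block 6553 genes were called, 1 of the 8 genes was higher (SPTB at 1.78, with ANK1 at an adjusted p of 0.145 from limma) and 1 partner was lower. Depth limits EPB42 the most, as the gene with the fewest reads.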
